A study of Mus musculus with 9 samples.

Results

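The expression of 10 genes of iron and heme handling was examined in lung macrophages of mice with and without a lung tumor. The genes were Hmox1, Blvra, Blvrb, Cd163, Tfrc, Slc11a1, Fth1, Ftl1, Ncoa4 and Slc40a1. They were chosen by symbol, and all 10 were found among the 24346 gene symbols measured. In the study, C57BL/6 mice were inoculated in the left lung with Lewis lung carcinoma (LLC), a lung cancer cell line of this mouse strain that had been made to express tdTomato, a red fluorescent protein, and vehicle was given to controls. RNA was sequenced from sorted cells of mice at postnatal week 10, in 3 groups of 3 samples. Ctrl-AM were alveolar macrophages (AMs), the resident macrophages of the air spaces, of vehicle-treated mice. Tumor-AM were AMs of mice that carried LLC tumors, and Tumor-macrophage were tumor-associated macrophages (TAMs) of such mice. No gene was altered in any of the groups. Both cell types were sorted from CD45+ autofluorescent cells that carried F4/80, and AMs were separated from TAMs by Siglec-F. The lungs were not perfused before the cells were taken. The tumor was a single implanted cell line, and the sources used here do not state whether samples with the same number came from the same mouse.

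Macrophages are the main recyclers of iron in the body. They take up hemoglobin and old red cells, open the heme ring, keep the released iron in ferritin and return it to the circulation through ferroportin. AMs are known to hold iron because they clear inhaled particles and blood that enters the air spaces. Part of the system is controlled at the level of the messenger RNA: when iron is scarce, iron regulatory proteins bind hairpins called iron-responsive elements (IREs), which blocks translation of ferritin and ferroportin and stabilizes the transferrin receptor message. RNA levels therefore do not by themselves report the protein of these genes.

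The hairpins are shown first because they sort the genes by this control. A search of the annotated untranslated regions (GENCODE M21, GRCm38, the mm10 assembly to which the reads were aligned) for a bulged C, a paired upper stem and the loop CAGTGN found 7 elements in 4 of the 10 genes. Each is printed 5′ to 3′ on the strand of its gene with the 6-base loop in capitals.

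Fth1, 5′ UTR, chr19:9982732-9982760, plus strand: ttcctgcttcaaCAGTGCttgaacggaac

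Ftl1, 5′ UTR, chr7:45459779-45459807, minus strand: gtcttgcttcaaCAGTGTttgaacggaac

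Slc40a1, 5′ UTR, chr1:45925465-45925493, minus strand: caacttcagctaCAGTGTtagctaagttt

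Tfrc, 3′ UTR, chr16:32631219-32631247, plus strand: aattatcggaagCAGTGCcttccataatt

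Tfrc, 3′ UTR, chr16:32631598-32631626, plus strand: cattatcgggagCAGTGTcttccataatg

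Tfrc, 3′ UTR, chr16:32631663-32631691, plus strand: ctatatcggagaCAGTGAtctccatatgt

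Tfrc, 3′ UTR, chr16:32631710-32631738, plus strand: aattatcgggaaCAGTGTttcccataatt

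The elements of Fth1, Ftl1 and Slc40a1 lay in the 5′ UTR and those of Tfrc in the 3′ UTR. Of 21877 genes with a coding transcript, 23 (0.105%) had such a match in a 5′ UTR and 100 (0.457%) in a 3′ UTR. The other 6 genes had no match to this pattern, which says only that these letters were not found there.

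Levels are given in FPKM, a count of fragments divided by transcript length and by the mapped fragments of the library, which allows levels of different genes to be set side by side. The summed FPKM was 635560 to 785745 per library, and a depth estimated from the steps between low values was about 10121400 to 12741400 reads, which is used for the read numbers below. Siglecf, Marco, Chil3 and the other genes of a list of 10 AM markers summed to 27222 to 32642 FPKM for Ctrl-AM, 23204 to 39986 for Tumor-AM and 266 to 582 for Tumor-macrophage. A list of 9 TAM and monocyte markers (among them Itgam, Ccr2 and the C1q genes) summed to 25.1 to 31.2, 75.5 to 136 and 14302 to 14748 FPKM in the same order, so the sorted identities were visible in each library. The 9 red blood cell markers in the files summed to at most 7.38 FPKM in any library, with Slc4a1 at 0 throughout. A list of 8 lymphocyte markers summed to 15.4 to 19.6 FPKM for Ctrl-AM, 7.96 to 21.8 for Tumor-AM and 42.1 to 78.0 for Tumor-macrophage. The part of lymphocyte RNA in genes at low levels in TAMs, such as Tfrc, was not tested. Tumor-AM 2 stood apart within its group in targets of the oxidative stress regulator NRF2. It held the highest of the 3 Tumor-AM values for 12 of 12 tested targets and for 6 of the 10 genes, while it was the highest of the 3 for 35.9% of all genes tested. Ctrl-AM 1 and Tumor-macrophage 3 also held the highest value of their group for 6 of the 10 genes. They did so for 7 and 5 of the 12 targets. Tumor-AM 3 had the highest sum of 10 endothelial and fibroblast markers, 89.7 FPKM, against 8.38 to 25.0 in the other 8 libraries.

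Differences between groups were tested with limma on log2(FPKM + 1) over 10686 genes, with p-values adjusted by the Benjamini-Hochberg method over all of them and a threshold of 0.05. The log2 changes below are on this scale, which understates the change of genes near or below 1 FPKM. The study describes the samples of each population as separate mice, and the labels number them without naming the animals. In bulk RNA, fewer cells of one kind and less RNA per cell cannot be told apart.

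**Figure D1:**
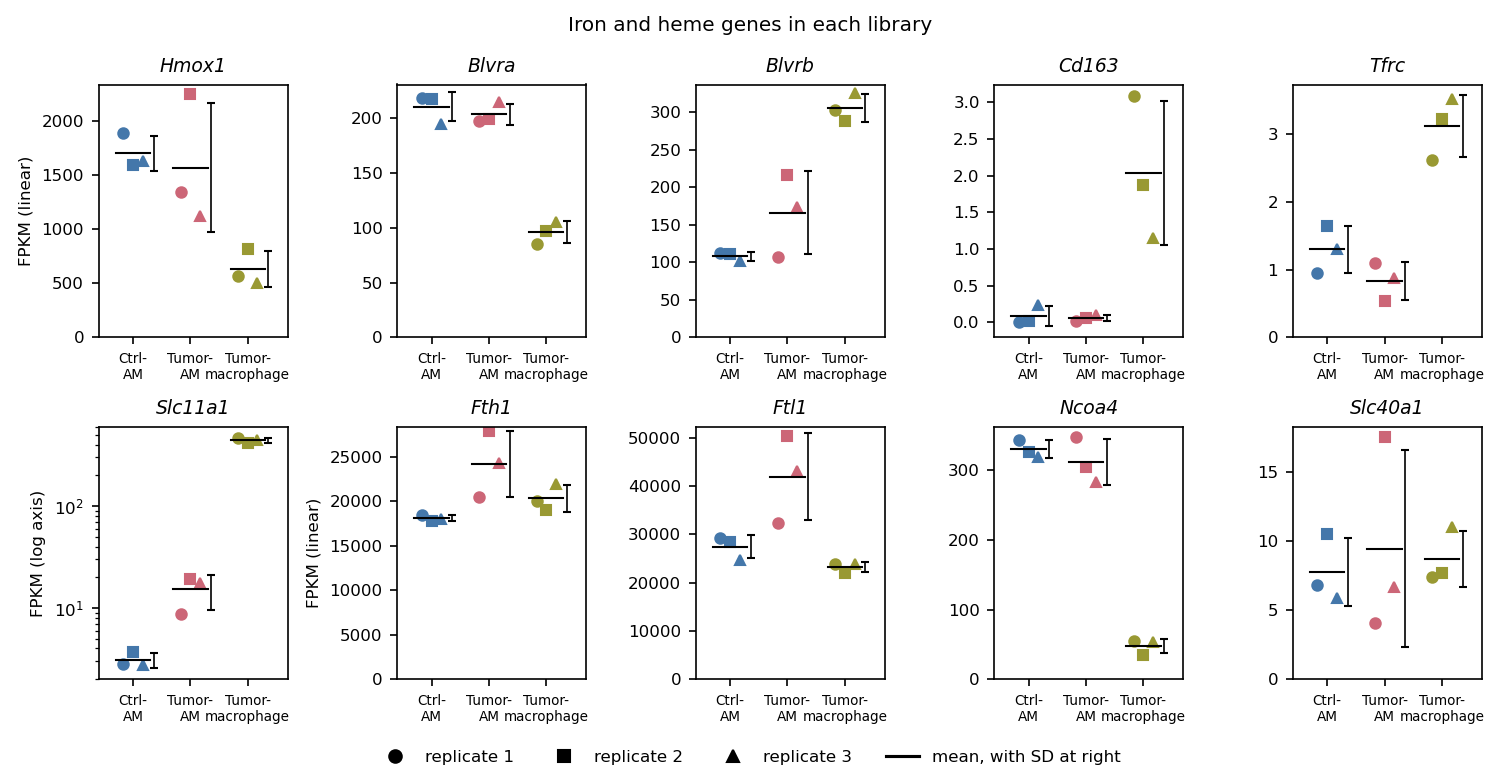
FPKM of the 10 iron and heme genes in each of the 9 libraries, one panel per gene (linear axes, with a log axis for Slc11a1). Circles, squares and triangles are replicates 1, 2 and 3, lines are group means and bars are the SD (n = 3). Hmox1, Blvra and Ncoa4 lie lower in each Tumor-macrophage library than in each AM library, and Blvrb, Cd163, Tfrc and Slc11a1 lie higher. Tumor-AM replicate 2 has the highest value of all libraries for Hmox1, Fth1, Ftl1 and Slc40a1.

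Heme breakdown was strongly expressed in AMs, with a different balance of enzymes in TAMs. Hmox1 and Blvra were lower in TAMs than in both AM groups, and Blvrb was higher. None of the 3 passed the threshold between Tumor-AM and Ctrl-AM.

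Hmox1 (chromosome 8, 75093621 to 75100589, plus strand) encodes heme oxygenase 1, the inducible enzyme that opens heme into biliverdin, carbon monoxide and iron. Its FPKM was 1887, 1592 and 1628 for Ctrl-AM replicates 1 to 3, 1347, 2251 and 1118 for Tumor-AM and 564, 821 and 504 for Tumor-macrophage. Hmox1 ranked 31st among all genes by mean FPKM in Ctrl-AM, 35th in Tumor-AM and 135th in Tumor-macrophage. All TAM libraries lay below all AM libraries, while Tumor-AM surrounded Ctrl-AM on both sides. The log2 change in Tumor-macrophage was -1.28 ± 0.24 (SE) against Tumor-AM (adjusted p = 0.00124) and -1.46 ± 0.24 against Ctrl-AM (adjusted p = 0.000451). Between Tumor-AM and Ctrl-AM it was -0.18, with a 95% confidence interval of -0.71 to 0.36 and an adjusted p of 0.716. Leaving out Tumor-AM 3 turned the sign of that last change, to 0.04.

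Blvra (chromosome 2, 127070665 to 127097084, plus strand) encodes biliverdin reductase A, which turns the biliverdin made from heme into bilirubin. It stood at 219, 218 and 195 FPKM for Ctrl-AM, 198, 199 and 215 for Tumor-AM and 85.2, 97.0 and 106 for Tumor-macrophage. The AM groups overlapped, and TAMs lay below them. The log2 change in Tumor-macrophage was -1.08 ± 0.09 against Tumor-AM (adjusted p = 2.39e-06) and -1.13 ± 0.09 against Ctrl-AM (adjusted p = 1.35e-06), while between the AM groups it was -0.05 (95% interval -0.24 to 0.15, adjusted p = 0.802). Blvra varied least of the 10 genes among the Tumor-AM libraries, with a coefficient of variation of 4.59%.

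Blvrb (chromosome 7, 27447978 to 27466144, plus strand) encodes biliverdin reductase B, also known as flavin reductase, a separate enzyme that reduces flavins and other biliverdin forms. It went the other way, with 112, 111 and 101 FPKM for Ctrl-AM, 107, 217 and 174 for Tumor-AM and 303, 289 and 326 for Tumor-macrophage. Replicates 2 and 3 of Tumor-AM lay between the other groups and replicate 1 lay among the Ctrl-AM libraries. The log2 change in Tumor-macrophage was 0.93 ± 0.20 against Tumor-AM (adjusted p = 0.00276) and 1.49 ± 0.20 against Ctrl-AM (adjusted p = 9.52e-05). Between Tumor-AM and Ctrl-AM it was 0.56 ± 0.20 (adjusted p = 0.113). Without Tumor-AM 1 that change was 0.84 and passed the threshold (adjusted p = 0.00201).

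The balance of the reductases was compared within each library. Ratios were taken between FPKM + 1 values. The log2 ratio of Blvra to Blvrb was 0.96, 0.97 and 0.94 for Ctrl-AM, 0.88, -0.12 and 0.30 for Tumor-AM and -1.82, -1.56 and -1.62 for Tumor-macrophage. Blvra was thus the higher of the pair in every Ctrl-AM library and Blvrb in every Tumor-macrophage library. None of the 3 pairs of groups overlapped, and each exact two-sided permutation test gave p = 0.1, the smallest that 3 against 3 samples allow (adjusted p = 0.15 over 9 ratio tests).

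Cd163 (chromosome 6, 124304656 to 124330527, plus strand), the scavenger receptor for hemoglobin bound to haptoglobin, was barely detected in AMs. Its FPKM was 0, 0.02 and 0.24 for Ctrl-AM and 0.02, 0.06 and 0.10 for Tumor-AM, which at the estimated depth equals at most 13.3 reads in a library. In Tumor-macrophage it was 3.09, 1.87 and 1.14 FPKM, or 57.2 to 138 reads. The groups of AMs overlapped at this floor and all TAM libraries lay above them. The log2 change in Tumor-macrophage was 1.47 ± 0.21 against Tumor-AM (adjusted p = 0.000199) and 1.44 ± 0.21 against Ctrl-AM (adjusted p = 0.000193). Cd163 entered the test only through its TAM values, so a difference was built into its selection, and between the AM groups (log2 change -0.03, adjusted p = 0.961) no difference could be seen at this depth.

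Iron entry showed the widest range of the 10 genes. The level of Slc11a1 differed between all 3 groups, and the transferrin receptor was low in all of them and highest in TAMs.

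Slc11a1 (chromosome 1, 74375195 to 74386062, plus strand) encodes NRAMP1, a metal transporter of the phagosome membrane that moves iron out of vacuoles and limits growth of engulfed microbes. It stood at 2.83, 3.68 and 2.76 FPKM for Ctrl-AM, 8.66, 19.3 and 17.7 for Tumor-AM and 463, 416 and 447 for Tumor-macrophage. No group overlapped another. The log2 change was 1.92 ± 0.23 in Tumor-AM against Ctrl-AM (adjusted p = 0.000981, mean 4.93 times higher), and it passed the threshold in 18 of 18 alternative analyses. In Tumor-macrophage it was 4.84 ± 0.23 against Tumor-AM (adjusted p = 4.86e-08, mean 29.0 times higher) and 6.76 ± 0.23 against Ctrl-AM (adjusted p = 2.95e-09, mean 143 times higher). These were the largest log2(FPKM + 1) changes among the 10 genes in every comparison, and Slc11a1 ranked 7998th by mean FPKM in Ctrl-AM, 4145th in Tumor-AM and 228th in Tumor-macrophage.

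The rise of Slc11a1 in Tumor-AM went with TAM markers. Of the 9 TAM and monocyte markers, 7 were also higher in Tumor-AM than in control AMs and none was lower, beside 7.11% and 3.18% of all genes tested. The Tumor-AM mean of Slc11a1 had covered 2.77% of the distance from the Ctrl-AM mean to the Tumor-macrophage mean. For the 9 markers that share ran from 0.234% for Cx3cr1 to 7.07% for Ccr2, with 2.08% for Itgam and 0.331% to 0.532% for the C1q genes. Within Tumor-AM, Slc11a1 was highest in replicate 2, where the markers summed to 75.5 FPKM, and lowest in replicate 1, where they summed to 85.4, with 136 in replicate 3. Much of this sum was C1q RNA, with C1qb alone at 37.5, 35.6 and 69.9 FPKM in replicates 1 to 3. Single markers differed in order. Ly6c2 ran in the order of Slc11a1 (7.44, 8.20 and 7.75 FPKM), and Itgam was also lowest in replicate 1 (3.61, 4.46 and 4.52 FPKM). Ccr2, Cx3cr1, Tgfb3, Aif1 and the C1q genes were lowest in replicate 2. The part of TAM RNA in the Slc11a1 level of Tumor-AM was not tested.

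**Figure D2:**
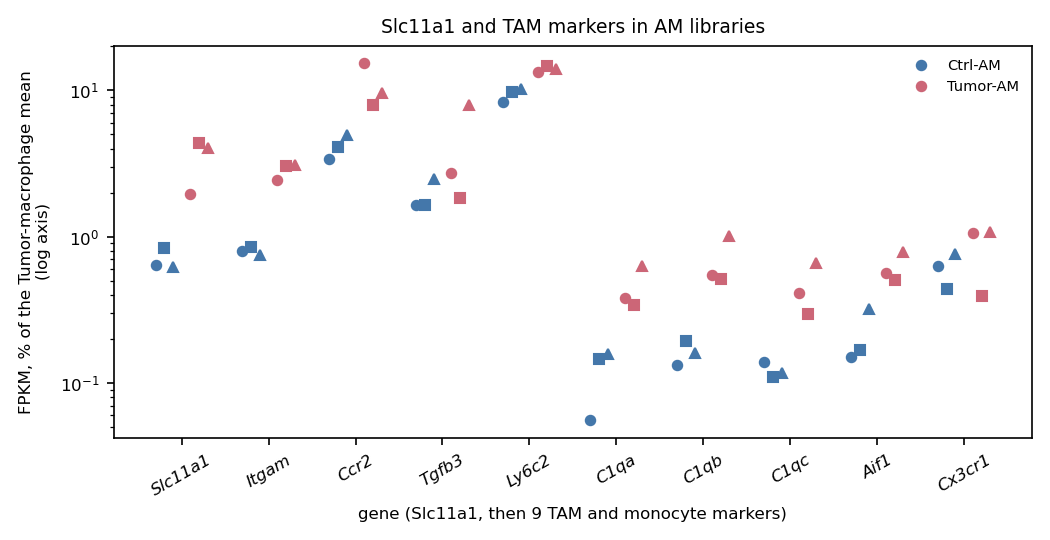
Slc11a1 and 9 TAM and monocyte markers in the AM libraries, as a percentage of the mean FPKM of each gene in Tumor-macrophage (log axis). Circles, squares and triangles are replicates 1, 2 and 3 of Ctrl-AM (blue) and Tumor-AM (red). Slc11a1, Itgam, Ccr2, Ly6c2, Aif1 and the C1q genes are higher in each Tumor-AM library than in each Ctrl-AM library, and Tgfb3 and Cx3cr1 overlap.

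Tfrc (chromosome 16, 32608920 to 32632794, plus strand), the transferrin receptor that brings iron-loaded transferrin into the cell, carried the 3′ UTR elements printed above. Its FPKM was 0.95, 1.64 and 1.30 for Ctrl-AM, 1.10, 0.54 and 0.87 for Tumor-AM and 2.61, 3.22 and 3.52 for Tumor-macrophage. The AM groups overlapped and TAMs lay above both. The log2 change in Tumor-macrophage was 1.17 ± 0.17 against Tumor-AM (adjusted p = 0.000171) and 0.85 ± 0.17 against Ctrl-AM (adjusted p = 0.00139). Between Tumor-AM and Ctrl-AM it was -0.32 (95% interval -0.69 to 0.05, adjusted p = 0.267). These levels equal only about 30.2 to 195 reads per library.

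Iron storage was the largest part of the system in RNA. The ferritin subunits were among the 5 most abundant messages in each library, and Ncoa4, which delivers ferritin for breakdown, was higher in both AM groups than in TAMs.

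Fth1 (chromosome 19, 9980598 to 9985098, plus strand) encodes the ferritin heavy chain, which oxidizes iron on entry into the shell. Fth1 stood at 18450, 17814 and 18054 FPKM for Ctrl-AM, 20450, 27866 and 24260 for Tumor-AM and 20010, 19024 and 21959 for Tumor-macrophage. The Tumor-AM libraries were all above the Ctrl-AM libraries, but the change of 0.41 ± 0.12 did not pass the threshold (adjusted p = 0.0678), and it passed in 1 of 18 alternatives, the one without Tumor-AM 1 (log2 change 0.52, adjusted p = 0.0203). In Tumor-macrophage the change was -0.24 against Tumor-AM (95% interval -0.52 to 0.03, adjusted p = 0.135) and 0.16 against Ctrl-AM (95% interval -0.11 to 0.44, adjusted p = 0.288). The first of these passed the threshold under 3 alternatives (TPM, quantile normalization and without Tumor-AM 1), and the second turned to -0.07 in TPM and to -0.57 (adjusted p = 0.000234) when all libraries were forced to 1 distribution by quantile normalization.

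Ftl1 (chromosome 7, 45457944 to 45459884, minus strand) encodes the ferritin light chain, which lines the core where iron is laid down. It was the 2nd most abundant gene in each of the 6 AM libraries, with 29190, 28538 and 24788 FPKM for Ctrl-AM and 32473, 50324 and 43051 for Tumor-AM, against 23895, 22030 and 23978 for Tumor-macrophage. Tumor-AM lay above both other groups without overlap. The log2 change was 0.59 ± 0.16 against Ctrl-AM (adjusted p = 0.0407), and in Tumor-macrophage it was -0.83 ± 0.16 against Tumor-AM (adjusted p = 0.0013) and -0.24 ± 0.16 against Ctrl-AM (adjusted p = 0.227). The higher level in Tumor-AM was called in 7 of 18 alternatives, and leaving out any 1 of the Ctrl-AM libraries, Tumor-AM 2, Tumor-AM 3 or Tumor-macrophage 3 put its adjusted p between 0.0578 and 0.157. The difference between Tumor-macrophage and Tumor-AM was called in 17 of 18 alternatives, and that between Tumor-macrophage and Ctrl-AM in 2, at -0.47 in TPM and -0.48 under quantile normalization. Of the 75-base windows of the Ftl1 transcript, 84.8% also occurred in other annotated genes, mostly processed pseudogenes such as Ftl1-ps1, so its level depends on how the authors assigned reads shared between copies. The same share was 3.86% for Fth1.

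Fth1 and Ftl1 together made up 7.25%, 7.02% and 6.74% of all FPKM for Ctrl-AM, 7.62%, 10.7% and 9.29% for Tumor-AM and 5.68%, 5.52% and 5.85% for Tumor-macrophage. The 3 groups did not overlap. The log2 ratio of Fth1 to Ftl1 was -0.66, -0.68 and -0.46 for Ctrl-AM, -0.67, -0.85 and -0.83 for Tumor-AM and -0.26, -0.21 and -0.13 for Tumor-macrophage. The light chain was thus the higher of the pair in each library, and the heavy chain came closest to it in TAMs. The ratio differed by 0.58 between Tumor-macrophage and Tumor-AM and by 0.40 between Tumor-macrophage and Ctrl-AM, with no overlap (exact permutation p = 0.1 each, the smallest possible, adjusted p = 0.15), and by -0.18 between the AM groups (exact permutation p = 0.2, adjusted p = 0.225).

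**Figure D3:**
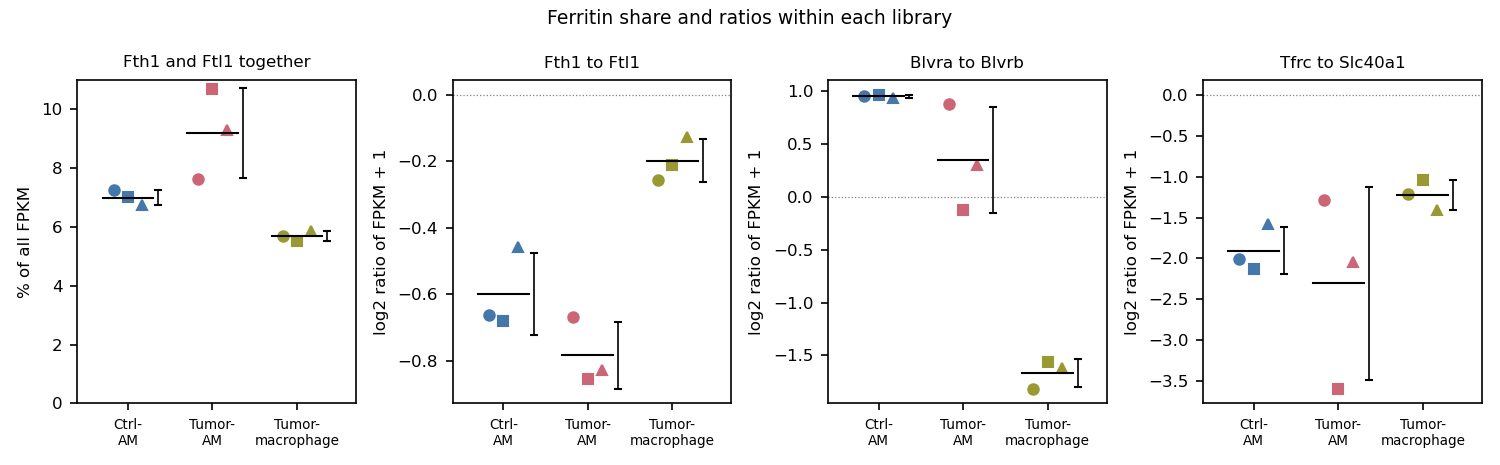
Share of all FPKM taken by Fth1 and Ftl1 together (left, in percent) and log2 ratios within each library of Fth1 to Ftl1, Blvra to Blvrb and Tfrc to Slc40a1. Circles, squares and triangles are replicates 1, 2 and 3, lines are group means and bars are the SD (n = 3). The ferritin share is 7.62% to 10.7% in Tumor-AM and below 6% in each Tumor-macrophage library, and the Blvra to Blvrb ratio falls below 0 in Tumor-AM replicate 2 and in all Tumor-macrophage libraries.

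Ncoa4 (chromosome 14, 32159865 to 32179855, plus strand) encodes the cargo receptor that delivers ferritin to lysosomes, where its iron is freed. Ncoa4 stood at 344, 327 and 319 FPKM for Ctrl-AM, 347, 305 and 284 for Tumor-AM and 55.0, 35.5 and 52.9 for Tumor-macrophage. The AM groups overlapped, and TAM libraries lay far below them. The log2 change in Tumor-macrophage was -2.70 ± 0.15 against Tumor-AM (adjusted p = 1.11e-07) and -2.79 ± 0.15 against Ctrl-AM (adjusted p = 6.38e-08), the largest decreases among the 10 genes. Between the AM groups it was -0.09 (95% interval -0.41 to 0.24, adjusted p = 0.775). Of its 75-base windows, 50.6% also occurred in 1 other annotated gene, Gm6768, so reads of this gene may have been split.

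Iron export was measured through Slc40a1 (chromosome 1, 45908068 to 45926523, minus strand), which encodes ferroportin, the only known iron exporter of mammalian cells. It was low, with 6.83, 10.5 and 5.89 FPKM for Ctrl-AM, 4.11, 17.6 and 6.70 for Tumor-AM and 7.39, 7.69 and 11.0 for Tumor-macrophage. All groups overlapped, and Tumor-AM 2 was the highest library and Tumor-AM 1 the lowest. The log2 change was 0.08 in Tumor-AM against Ctrl-AM (95% interval -0.80 to 0.95, adjusted p = 0.935), 0.09 in Tumor-macrophage against Tumor-AM (-0.79 to 0.96, adjusted p = 0.873) and 0.16 against Ctrl-AM (-0.71 to 1.04, adjusted p = 0.746). These intervals are wide enough to hold a change of 1.5 times in either direction. Without Tumor-AM 2 the first change was -0.45 (adjusted p = 0.359). The log2 ratio of Tfrc to Slc40a1 (each + 1), uptake against export, was -2.00, -2.13 and -1.58 for Ctrl-AM, -1.28, -3.59 and -2.04 for Tumor-AM and -1.21, -1.04 and -1.41 for Tumor-macrophage. It did not overlap between Tumor-macrophage and Ctrl-AM (difference 0.68, exact permutation p = 0.1, adjusted p = 0.15) and overlapped in the other pairs (exact permutation p = 0.8 between the AM groups and 0.2 between Tumor-macrophage and Tumor-AM). Tfrc was near 1 FPKM in AMs, where the added 1 moves the ratio. Without it, Tfrc was 0.139, 0.155 and 0.221 times Slc40a1 for Ctrl-AM, 0.268, 0.0309 and 0.13 times for Tumor-AM and 0.354, 0.418 and 0.319 times for Tumor-macrophage, where it no longer overlapped with either AM group. With 0.1 added instead, the log2 differences were -0.66 between the AM groups, 1.70 between Tumor-macrophage and Tumor-AM and 1.04 between Tumor-macrophage and Ctrl-AM (exact permutation p = 0.7, 0.1 and 0.1).

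**Figure D4:**
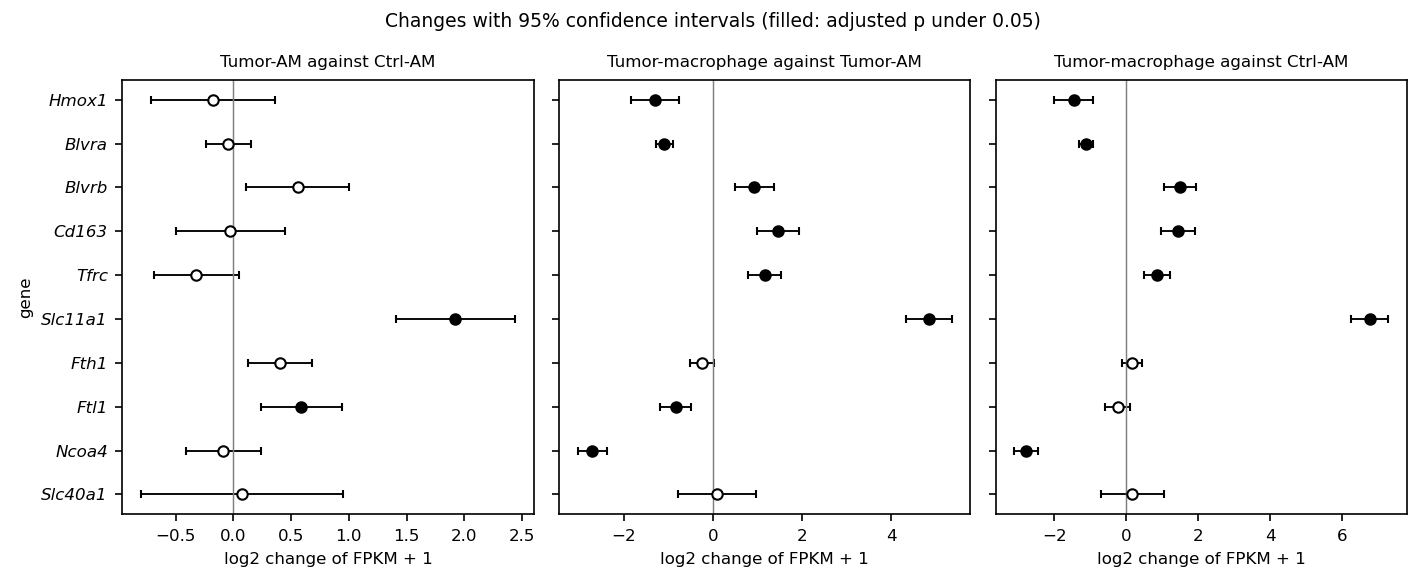
Log2 changes of FPKM + 1 of the 10 genes with 95% confidence intervals in the 3 comparisons. Filled points have an adjusted p under 0.05 (limma, adjusted over 10686 genes). Slc11a1 and Ftl1 are filled between Tumor-AM and Ctrl-AM, and Slc11a1 and Ncoa4 lie farthest from 0 in the comparisons of TAMs.

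Counted together, 2 of the 10 genes were higher in Tumor-AM than in the controls (7.11% of all genes tested) and 0 were lower (3.18% of all genes tested), beside 10.3% of all genes called in either direction. At an unadjusted p under 0.05, 4 were higher and 0 lower (Fth1 and Blvrb beside Slc11a1 and Ftl1). The count of 2 rested on Ftl1 and fell to 1 without any single Ctrl-AM library, Tumor-AM 2, Tumor-AM 3 or Tumor-macrophage 3, and rose to 4 without Tumor-AM 1. Groups did not overlap for 3 of the 10 (32.3% of all genes). In Tumor-macrophage against Tumor-AM, 4 were higher (Slc11a1, Tfrc, Blvrb and Cd163, or 3 without Cd163, whose difference was built into its selection) and 4 lower (Hmox1, Ftl1, Blvra and Ncoa4), beside 24.2% and 24.4% of all genes in these directions and 48.6% in either. Groups did not overlap for 8 of the 10 (55.3% of all genes). In Tumor-macrophage against Ctrl-AM, 4 were higher (3 without Cd163) and 3 lower, beside 27.7%, 27.1% and 54.8%, and groups did not overlap for 9 of the 10 (62.3%). The median log2 change of the 10 genes was 0.03, -0.08 and 0.16 in these comparisons, and that of all genes tested was 0.01, 0.00 and -0.01. The comparisons share samples, so their counts are not independent of each other.

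The other genes of iron and heme pathways were examined in 10 lists of 100 genes, of which 85 were expressed enough to be tested. In Tumor-AM against Ctrl-AM, 11 were higher and 1 was lower, beside 7.11% and 3.18% of all genes tested. Without Ctrl-AM 3 the total of 12 was 6. In Tumor-macrophage, 19 were higher and 27 lower than in Tumor-AM, beside 24.2% and 24.4% of all genes tested. Against Ctrl-AM, 30 were higher and 26 lower in Tumor-macrophage, beside 27.7% and 27.1%. Of the 85, 2 reached 1 FPKM only in AM libraries (Slc22a17 and Mfsd7c) and 2 only in TAM libraries (Cp and Maf). Slc39a8 and Spic reached it in 1 Tumor-AM library and in all TAM libraries, so they passed the filter through their TAM values. Epas1 reached it in 1 TAM library and in all AM libraries, so it passed through its AM values. The median log2 change of the 85 genes was 0.10, -0.14 and -0.04.

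Transport of heme gave the most calls of the 10 lists between the AM groups, with 5 of 8 tested genes higher in Tumor-AM, beside 7.11% of all genes tested. The median log2 change was 0.48 for the list and 0.01 for all genes tested. The list is named first because its count was seen to be the highest. Slc48a1 and Tspo were called in 18 of 18 alternatives, Hp in 13, Abcg2 in 8 and Mfsd7b in 6. Only 2 genes were left with no filter, without Ctrl-AM 3, without Tumor-AM 1 or without Tumor-AM 3. In TPM, under quantile normalization and with a replicate block, 3 were left. Slc48a1, which carries heme out of the lysosome into the cytosol, stood at 94.5, 104 and 93.4 FPKM for Ctrl-AM, 128, 149 and 138 for Tumor-AM and 73.8, 69.1 and 75.3 for Tumor-macrophage (log2 change in Tumor-AM 0.50 ± 0.08, adjusted p = 0.00334). Tspo, a mitochondrial outer membrane protein that binds porphyrins and cholesterol, rose from a mean of 280 to 477 FPKM (0.75 ± 0.11, adjusted p = 0.00271). Hp, the haptoglobin that binds free hemoglobin, rose from 2.84 to 7.93 FPKM (1.23 ± 0.30, adjusted p = 0.0286). The other 2 were Mfsd7b, the symbol in the files for the heme exporter Flvcr1, and Abcg2, an efflux pump that also exports porphyrins. Mfsd7c, the symbol for the related transporter Flvcr2, was an AM gene, with 76.8 to 82.0 FPKM in the 6 AM libraries and 0.14 to 0.82 in TAMs (log2 change -5.91 ± 0.15 against Tumor-AM, adjusted p = 4.25e-10), and it entered the test only through its AM values.

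Partners of Hmox1 in heme breakdown were measured as well. Hmox2, the constitutive heme oxygenase, stood at 92.8, 98.0 and 93.2 FPKM for Ctrl-AM, 106, 114 and 126 for Tumor-AM and 112, 119 and 126 for Tumor-macrophage, so that its levels in AMs were below those of Hmox1 in each library. The change of 0.28 ± 0.08 in Tumor-AM lay just under the threshold (adjusted p = 0.05) and was called in 4 of 18 alternatives. Against Ctrl-AM, Hmox2 in Tumor-macrophage was higher by 0.33 ± 0.08 (adjusted p = 0.00508, lost in TPM with a change of 0.09) and Por, the reductase that supplies electrons to heme oxygenase, by 0.49 ± 0.14 (adjusted p = 0.0157).

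Of 7 tested genes of iron uptake and reduction, 2 were higher in Tumor-AM and 0 were lower, beside 7.11% and 3.18% of all genes tested. Slc11a2 encodes DMT1, the endosomal relative of the Slc11a1 protein, and followed its order at a smaller scale, with means of 7.73, 10.6 and 36.1 FPKM in Ctrl-AM, Tumor-AM and Tumor-macrophage (log2 change 0.41 ± 0.09 between AM groups, adjusted p = 0.0223, and 1.68 ± 0.09 of Tumor-macrophage against Tumor-AM, adjusted p = 1.49e-07). Steap3, a ferrireductase that prepares iron for DMT1, had means of 1.65, 3.41 and 9.41 FPKM (0.75 ± 0.19, adjusted p = 0.0336, and 1.25 ± 0.19, adjusted p = 0.000277). Slc22a17, a lipocalin receptor, was lower in TAMs than in Tumor-AM by 2.84 on the log2 scale (0.21 against 7.68 FPKM, adjusted p = 2.45e-08), and it entered the test only through its AM values.

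Around ferroportin, which itself did not pass the threshold, 4 genes of export and the hepcidin axis could be tested. Cp, ceruloplasmin, the ferroxidase that works with ferroportin, had a mean of 11.8 FPKM in TAMs and at most 0.48 in any AM library (log2 change 3.48 ± 0.20 against Tumor-AM, adjusted p = 1.74e-07). Like Cd163, Cp entered the test only through its TAM values, so a difference was built into its selection. Hfe, the hemochromatosis protein that binds the transferrin receptor, had means of 28.8, 32.5 and 93.8 FPKM (1.50 ± 0.11 of Tumor-macrophage against Tumor-AM, adjusted p = 9.05e-07). Hif1a, an oxygen-sensing factor, had means of 20.7, 35.9 and 84.5 FPKM in the 3 groups (0.75 ± 0.12 between the AM groups, adjusted p = 0.00418). Epas1, its relative, was lower in TAMs than in Tumor-AM by 1.45 on the log2 scale (0.68 against 3.49 FPKM, adjusted p = 0.000102). It reached 1 FPKM in 1 TAM library only and entered the test through its AM values, so a difference was built into its selection.

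Of the sensors that act on the printed elements, Aco1, which encodes iron regulatory protein 1, had means of 23.4, 25.5 and 15.0 FPKM and was lower in TAMs than in Tumor-AM (log2 change -0.73 ± 0.09, adjusted p = 7.37e-05). Ireb2, which encodes iron regulatory protein 2, lay between 1.99 and 3.48 FPKM in all 9 libraries and passed the threshold in no comparison (adjusted p = 0.872, 0.947 and 0.841). Fbxl5, the iron-sensing ligase subunit that degrades iron regulatory protein 2, was lower in TAMs than in Tumor-AM by 1.03 on the log2 scale (57.9 against 122 FPKM, adjusted p = 0.000441). None of the 3 was called between Tumor-AM and Ctrl-AM by limma (0 at an unadjusted p under 0.05). Of 3 tested genes of storage and iron chaperoning, Pcbp2 was lower in Tumor-macrophage than in both AM groups and Pcbp1 lower than in Ctrl-AM (adjusted p = 0.00133 and 0.00772 against Ctrl-AM).

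Of 12 regulators of heme and iron genes, 0 were called between the AM groups by limma (2 at an unadjusted p under 0.05). In Tumor-macrophage against Tumor-AM, 5 were higher and 2 lower, beside 24.2% and 24.4% of all genes tested. Against Ctrl-AM, 7 were higher and 3 lower in Tumor-macrophage, beside 27.7% and 27.1%. The higher genes in each of these comparisons include Maf and Spic. They passed the filter through their TAM values, so a difference was built into their selection. Spic, the factor of iron-recycling macrophages, stood at 0, 0.27 and 0.34 FPKM for Ctrl-AM, 0.49, 0.98 and 1.31 for Tumor-AM and 19.7, 10.5 and 10.7 for Tumor-macrophage. Its change between AM groups was 0.67 ± 0.25 (adjusted p = 0.121) and that of Tumor-macrophage against Tumor-AM 2.89 ± 0.25 (adjusted p = 3.68e-06). Spic reached 1 FPKM in 1 AM library only and entered the test through its TAM values. Nfe2l2, which encodes NRF2, an activator of Hmox1 and ferritin genes, was higher in Tumor-macrophage by 0.81 ± 0.11 against Tumor-AM (307 against 174 FPKM, adjusted p = 9.59e-05), in the group where Hmox1 was lowest. Bach1, the heme-sensing repressor of Hmox1, was higher there as well (0.40 ± 0.12, adjusted p = 0.0165), and without Tumor-macrophage 1 this change was 0.29 and was not called (adjusted p = 0.0609).

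Among 12 tested NRF2 targets, Slc7a11 and Txnrd1 were higher in Tumor-AM than in control AMs, beside 7.11% of all genes tested. Slc7a11, the cystine importer, stood at 4.82, 4.16 and 3.09 FPKM for Ctrl-AM and 8.51, 8.64 and 8.23 for Tumor-AM (0.93 ± 0.14, adjusted p = 0.00265). Txnrd1, thioredoxin reductase, rose from a mean of 74.7 to 106 FPKM (0.49 ± 0.07, adjusted p = 0.00271). Gsr, glutathione reductase, was lower in TAMs than in Tumor-AM by 3.03 on the log2 scale (21.0 against 181 FPKM, adjusted p = 1.31e-08), while Osgin1 was higher by 2.19 ± 0.24 (adjusted p = 2.37e-05).

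**Figure D5:**
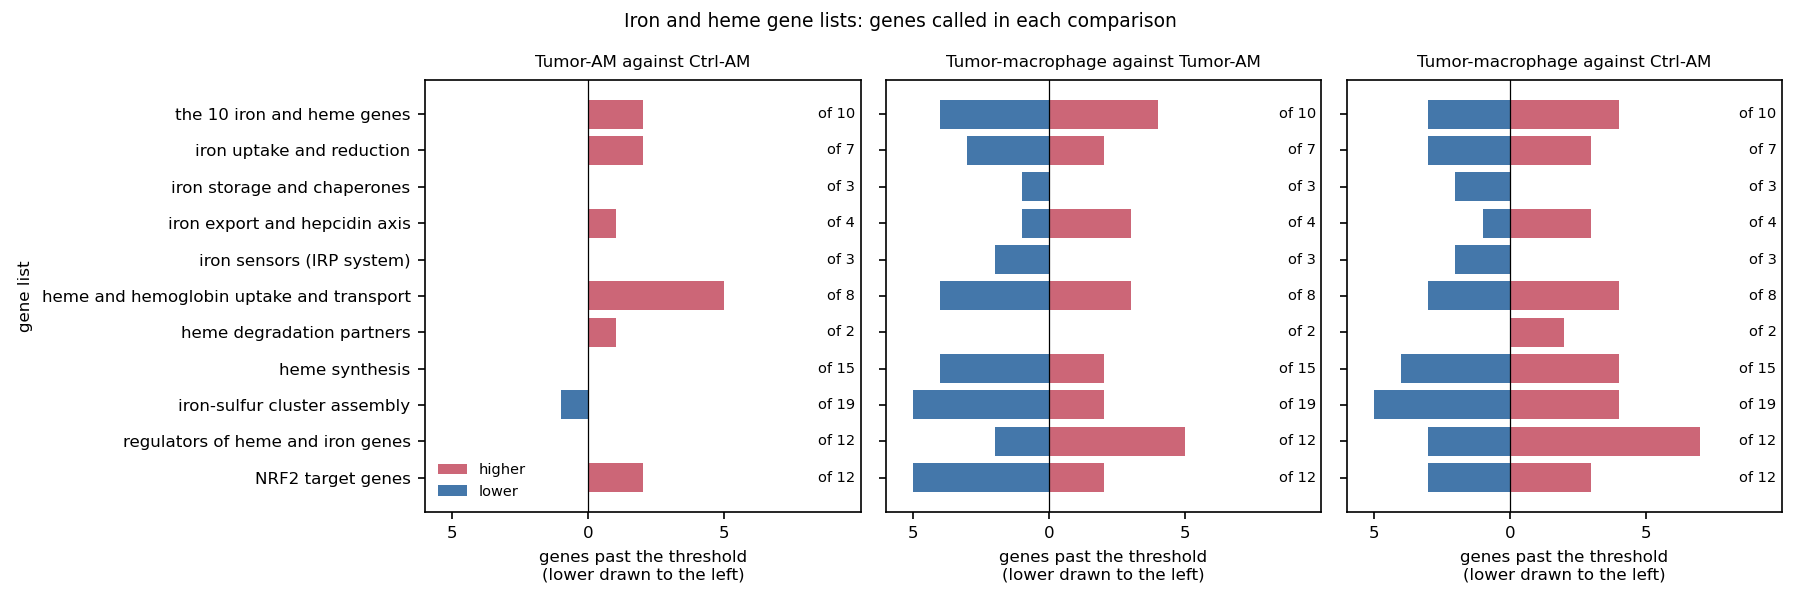
Number of genes past the threshold in the 10 iron and heme genes and in each of 10 lists of related genes, by comparison (higher to the right, lower to the left, with the number of genes tested at the right edge). Heme and hemoglobin uptake and transport has 5 of 8 genes higher in Tumor-AM, beside 7.11% of all genes tested. Calls in both directions stand in most lists when TAMs are compared with AMs.

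The coefficient of variation was highest in Tumor-AM for 7 of the 10 genes, in Tumor-macrophage for Blvra and Ncoa4 and in Ctrl-AM for Cd163, which was near 0 there. The same count was not taken over all genes tested, so whether this spread is particular to the 10 genes was not tested. The coefficient of variation of Hmox1 was 38.1% in Tumor-AM, against 9.47% in Ctrl-AM, that of Slc40a1 75.5% against 31.7%, and that of Blvrb 33.4% against 5.63%. Tumor-AM 2 held the highest value of all 9 libraries for 4 of the 10 genes (10.2% of all genes tested) and for 10 of 12 NRF2 targets. Nqo1, a classical target, was 4.57 FPKM in Tumor-AM 2, against 1.61 and 2.01 in the other Tumor-AM libraries and 1.21 to 1.80 in Ctrl-AM. Without this library the change of Hmox1 between Tumor-AM and Ctrl-AM was -0.47 and that of Ftl1 0.45, and neither was called.

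The genes whose levels ran most like each of the 10 across the 9 libraries were found among 5337 genes with a mean of at least 10 FPKM, by the root mean square difference of log2 values centred on each gene. These are descriptions over 9 libraries in 3 groups and say nothing of shared control. Closest were Tram1 for Fth1 (0.0615) and Stk24 for Blvra (0.0667). Nedd9 (0.0976) was closest to Ncoa4, with means of 112, 113 and 17.8 FPKM in Ctrl-AM, Tumor-AM and Tumor-macrophage. Ftl1 was followed by Tmem43 (0.0981) and then by the heme transporter Slc48a1 (0.135), the one gene of the pathway lists among these neighbours. Pla2g7, a secreted phospholipase, ran closest to Slc11a1 (0.134), with means of 5.72, 24.1 and 649 FPKM. The closest genes to Slc40a1 (Dctpp1, 0.36) and Hmox1 (Chpf, 0.22) were farther from them.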

How the data were processed

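RNA of 9 samples was made into libraries with the SMART-Seq HT and Nextera kits and sequenced by the study as single-end reads. The authors aligned reads to mm10 with TopHat2 2.1.1 and Bowtie2 and deposited FPKM from Cuffdiff 2.2.1, 1 value per gene symbol and sample. The annotation, strand setting and treatment of shared reads are not given in the sources used here. Depth had to be estimated, and it limits genes under about 1 FPKM.

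From these values, log2(FPKM + 1) of genes with at least 1 FPKM in at least 3 of 9 samples was fitted with limma 3.58.1 (R 4.3.3, variance trend, all 9 samples sharing the spread, no covariate, two-sided), which was tested on simulated data. Ratios were compared by exact permutation tests (scipy 1.17.1). Groups came from the sample titles. Changes are given ± SE and intervals are at 95%. The named genes were the 10 genes, up to 3 genes of each list and comparison with the largest change past the threshold, 6 regulators (Aco1, Ireb2, Hmox2, Nfe2l2, Bach1 and Spic) and the closest profiles. Abcg2 and the values of Mfsd7b in Tumor-AM were outside that rule and chosen after their values were seen. Of 100 listed genes, 5 were matched by an older symbol. The 10 genes and all lists were chosen with earlier results of these data known. Alternatives changed the pseudocount (0.1), the filter (none, or 5 FPKM), the scaling (TPM, median ratio, quantile), the variance trend, the samples fitted and a replicate block, or left out each library.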

Additional observations from a re-analysis of the deposited data

How the results depend on the processing

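Of 30 changes of the 10 genes, 23 kept their call in every alternative that could be run. The number of the 10 genes called between Tumor-AM and Ctrl-AM, 2, became 1 with no filter, in TPM, under quantile normalization, with only the 2 groups fitted and with a replicate block, and 1 to 4 when single libraries were left out; quantile normalization sets the change of Ftl1 to 0 by construction, since it ranks 2nd in all AM libraries, and for the others the cause was not tested. Pathway genes called there were 12, 7 with no filter and 6 to 14 with single libraries left out (6 without Ctrl-AM 3). Rescaling to TPM moved the median of all genes to -0.11, -0.08 and -0.22 in the 3 comparisons. Signs turned only for changes that were not called in the fit reported. Tumor-AM against Ctrl-AM, TPM gave -0.0543 for Slc40a1, -0.0168 for Aco1 and -0.0191 for Bach1, and leaving out single libraries gave -0.468 to 0.0364 for Hmox1, -0.445 to 0.485 for Slc40a1, -0.0819 to 0.0719 for Cd163, -0.162 to 0.0402 for Ireb2 and -0.911 to 0.243 for the ratio of Tfrc to Slc40a1. Tumor-macrophage against Tumor-AM, TPM gave -0.0584 for Ireb2 and -0.0505 for Hmox2, quantile normalization gave -0.0687 for Ireb2, and single libraries left out gave -0.320 to 0.610 for Slc40a1, -0.145 to 0.148 for Ireb2 and -0.0114 to 0.112 for Hmox2. Tumor-macrophage against Ctrl-AM, TPM gave -0.0461 for Slc40a1 and -0.0717 for Fth1, quantile normalization gave -0.572 for Fth1, and single libraries left out gave -0.000247 to 0.382 for Slc40a1 and -0.206 to 0.0869 for Ireb2. Under the stricter filter and some left-out libraries Cd163, Tfrc or Ireb2 fell out of the test. Same-numbered samples of different groups had a mean correlation of deviations of 0.05 (9 pairs, 2 over 0.1). Only Tumor-AM and Tumor-macrophage samples could come from the same mouse. Their same-numbered correlations were 0.026, 0.096 and 0.109, against -0.101 to 0.00617 for other numbers. These few values do not settle whether the samples were paired, and the sources state no pairing. The replicate block is therefore given only as an alternative. It left 8 and 7 of the 10 genes called in the comparisons of TAMs.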

Other observations

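Counts for other uses of iron and heme are read beside all genes tested, of which 10.3% were called between the AM groups, 48.6% between Tumor-macrophage and Tumor-AM and 54.8% between Tumor-macrophage and Ctrl-AM. Of 15 tested genes of heme synthesis, 0 were called between Tumor-AM and Ctrl-AM by limma (3 at an unadjusted p under 0.05), in Tumor-macrophage 2 exceeded and 4 fell below Tumor-AM, and 4 exceeded and 4 fell below Ctrl-AM. Alas1, the first and rate-limiting enzyme of heme synthesis outside red cells, stood at 190, 191 and 185 FPKM for Ctrl-AM, 207, 214 and 242 for Tumor-AM and 78.3, 70.8 and 65.8 for Tumor-macrophage (limma log2 change -1.61 ± 0.08 of Tumor-macrophage against Tumor-AM, adjusted p = 7.83e-08). Tmem14c, a mitochondrial porphyrinogen transporter, was lower as well (-0.72 ± 0.07, adjusted p = 7.93e-06), while Slc25a37, a mitochondrial iron importer, was higher (1.04 ± 0.11, adjusted p = 1.56e-05).

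Of 19 genes of iron-sulfur cluster assembly, Lyrm4 was the 1 gene called between the AM groups. It stabilizes the cysteine desulfurase encoded by Nfs1, and stood at 37.6, 36.2 and 37.9 FPKM for Ctrl-AM, 27.2, 24.9 and 22.1 for Tumor-AM and 4.88, 4.95 and 5.15 for Tumor-macrophage, with no overlap between any groups (log2 change -0.58 ± 0.09 in Tumor-AM, adjusted p = 0.00337, and -2.10 ± 0.09 of Tumor-macrophage against Tumor-AM, adjusted p = 2.08e-08). Nfs1 and Glrx5, a carrier of assembled clusters, were also lower in TAMs than in Tumor-AM (-0.76 ± 0.07 and -0.78 ± 0.11, adjusted p = 9.48e-06 and 0.000147), and of the 19 genes 2 were higher and 5 lower in that comparison.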
